A study of Mus musculus with 6 samples.

Results

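Fatty acid oxidation genes encode the enzymes that shorten acyl-CoA chains in mitochondria and peroxisomes, the carnitine system that moves acyl groups across membranes, and the neighbouring steps that break down branched-chain acyl-CoA. They were taken as a list of 45 gene symbols, each looked up in the table of counts, and all 45 were present among its 24197 genes. By the place of the step, 24 were mitochondrial, 13 peroxisomal and 5 on branched-chain amino acid or propionyl-CoA steps, and 3 belonged to the cytosol or endoplasmic reticulum. The list was not chosen from measured values, but it was drawn up with earlier results of these data known. RNA was sequenced from stromal-vascular cells of inguinal fat of C57BL/6 mice that received a Prdm16 retrovirus (3 libraries) or a control retrovirus labelled puro (3 libraries). All cells grew in standard medium, and no treatment is recorded. No source used here gives the age of the mice, the promoter of the vectors or whether the libraries came from separate animals or cultures. The p-values therefore rest on the variation among 3 libraries a group, and that variation may be technical.

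In mitochondrial β-oxidation, carnitine palmitoyltransferases bring long-chain fatty acids into the matrix, chain-length-specific acyl-CoA dehydrogenases start each round, and a hydratase, a hydroxyacyl-CoA dehydrogenase and a thiolase complete it. Electrons leave the dehydrogenases through the electron transfer flavoprotein and its ubiquinone oxidoreductase. Peroxisomes shorten very-long-chain and branched fatty acids with oxidases in place of the dehydrogenases and send the shortened chains on. Brown and beige fat cells are known for a high capacity of this pathway, and PRDM16 is a zinc-finger regulator known for its part in forming such cells.

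The libraries held 34349660, 28169059 and 32678897 counts in the Prdm16 group and 31866630, 35798201 and 34303737 in the puro group, and 3 counts stood for 0.0852 to 0.104 CPM (read counts scaled to the TMM-adjusted library total). Prdm16 itself was at 2505 to 2796 CPM in the Prdm16 libraries, against 0.452 to 0.745 CPM in the puro libraries. Of the labelled cell type, the stromal markers Pdgfra (188 ± 6.64 against 199 ± 9.57 CPM, SD, n = 3 each) and Ly6a (988 ± 25.1 against 376 ± 9.20 CPM) were present in both groups, while Thy1 was near 0 in both (0.0709 ± 0.0684 and 0.534 ± 0.0751 CPM). The summed level of 6 adipocyte markers was 594 to 688 CPM in Prdm16 libraries and 124 to 138 CPM in puro libraries, and all 4 that could be tested rose, while Plin1 and Lep were near 0. Of these 4, Cidec (2 to 4 counts in puro libraries) and Adipoq (6 to 11) passed the filter on low counts only through their Prdm16 libraries. Of 8 stromal markers 2 rose, 5 fell and 1 did not pass, and they summed to 1476 to 1576 CPM in Prdm16 and 2696 to 3166 CPM in puro libraries. That order rests on Col1a1, which fell (145 ± 22.6 CPM in Prdm16 and 1705 ± 284 CPM in puro libraries, SD, n = 3 each). Without it the other 7 summed to 1352 to 1407 CPM in Prdm16 and 1133 to 1171 CPM in puro libraries. The higher Prdm16 sum of these 7 rests in turn on Ly6a alone. The only other marker that rose, Lum, was low (0.518 ± 0.094 against 0.0807 ± 0.0618 CPM). Lum passed the filter on low counts only through its Prdm16 libraries, and Thy1, among the 5 that fell, only through its puro libraries. Besides Col1a1, the falls included Cd34 (0.952 ± 0.213 against 16.4 ± 0.727 CPM) and Pdgfrb (196 ± 3.09 against 555 ± 11.6 CPM). The 6 mammary epithelial markers summed to 21.04 to 22.78 CPM in Prdm16 and 0.258 to 0.328 CPM in puro libraries, and 3 of 3 tested (Krt18, Cdh1 and Epcam) rose, while Krt8, Krt14 and Krt5 had 0 to 3 counts in every library. Those 3 had 0 to 5 counts in puro libraries and passed the filter on low counts only through their Prdm16 libraries. That all of them rose is therefore no separate result. The 6 endothelial markers summed to 9.06 to 11.9 CPM in Prdm16 and 1.67 to 1.81 CPM in puro libraries, mostly from Tek, which rose. The 6 brown fat markers were low, summing to 1.485 to 2.24 CPM in Prdm16 and 1.10 to 1.29 CPM in puro libraries. Most of that was Cox7a1, the 1 tested, which rose (log2 fold change 0.61 ± 0.20, adjusted p = 0.0156, edgeR). Ucp1 had 3 to 6 counts in Prdm16 and 0 to 1 in puro libraries and was too low to be tested. The 6 macrophage and leukocyte markers summed to 4.73 to 4.94 CPM in Prdm16 and 4.999 to 6.28 CPM in puro libraries. Most of that was Cd68, which did not pass (4.601 ± 0.190 against 3.846 ± 0.398 CPM), while Lyz2 fell (0.0330 ± 0.0346 against 1.465 ± 0.0952 CPM). Lyz2 passed the filter on low counts only through its puro libraries. The 6 muscle markers summed to at most 1.108 CPM in any library, and the 1 tested did not pass. Emr1 of the macrophage list, Cdh5 and Cldn5 of the endothelial list and Ckm and Myh4 of the muscle list had 0 counts in all 6 libraries. The part of these markers in the results below was not tested. Fewer cells of a type and less RNA per cell cannot be told apart in such bulk libraries.

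Most fatty acid oxidation genes were higher in the Prdm16 libraries, in most cases by less than 2-fold. Among the 44 members that could be tested, 27 rose, 9 fell and 8 were not called by edgeR's quasi-likelihood test at a Benjamini-Hochberg adjusted p of 0.05 over all 13805 genes tested. Across all genes tested, 37.5% rose and 38.0% fell, so 75.6% were called. The members' share of rises was 61.4% and of falls 20.5%. Their median log2 fold change, Prdm16 over puro, was 0.26, beside −0.01 over all genes. The 36 called members were also the ones whose libraries did not overlap between groups in CPM (77.6% of all genes tested did not overlap). A log2 change of at least 1 was reached by 9 risen and 2 fallen of the 44 tested members. Of all 13805 genes tested, 1338 rose (9.69%) and 1677 fell (12.1%) by that much. The remaining member, Acaa1b, had 1 to 5 counts per library and was too low to be tested.

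The counts differed by the place of the step. Among mitochondrial members 17 rose (70.8%), 4 fell (16.7%) and 3 did not pass (median log2 fold change 0.52). Of 12 peroxisomal ones tested 6 rose (50%), 3 fell (25%) and 3 did not pass (median 0.03). Over all genes tested 37.5% rose and 38.0% fell. The peroxisomal share called, 75%, was near the 75.6% of all genes. On branched-chain steps 4 of 5 genes rose (80%) and the other did not pass (median 0.44). Of the 3 cytosolic or endoplasmic reticulum members 2 fell (66.7%) and 1 did not pass (median −0.28). With chromosome medians removed (each gene fitted relative to the median of its chromosome), 18 mitochondrial and 4 peroxisomal members rose, and 3 of each fell. The difference between places was not tested. The summed level of the mitochondrial members was 2746, 2824 and 2867 CPM in the Prdm16 libraries, against 1859, 1856 and 1802 CPM in the puro libraries. That of the peroxisomal members was 459, 468 and 470 CPM, against 425, 428 and 435 CPM in puro. The branched-chain members summed to 253, 257 and 260 CPM in Prdm16 libraries and to 147, 147 and 141 CPM in puro libraries.

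**Figure D1:**
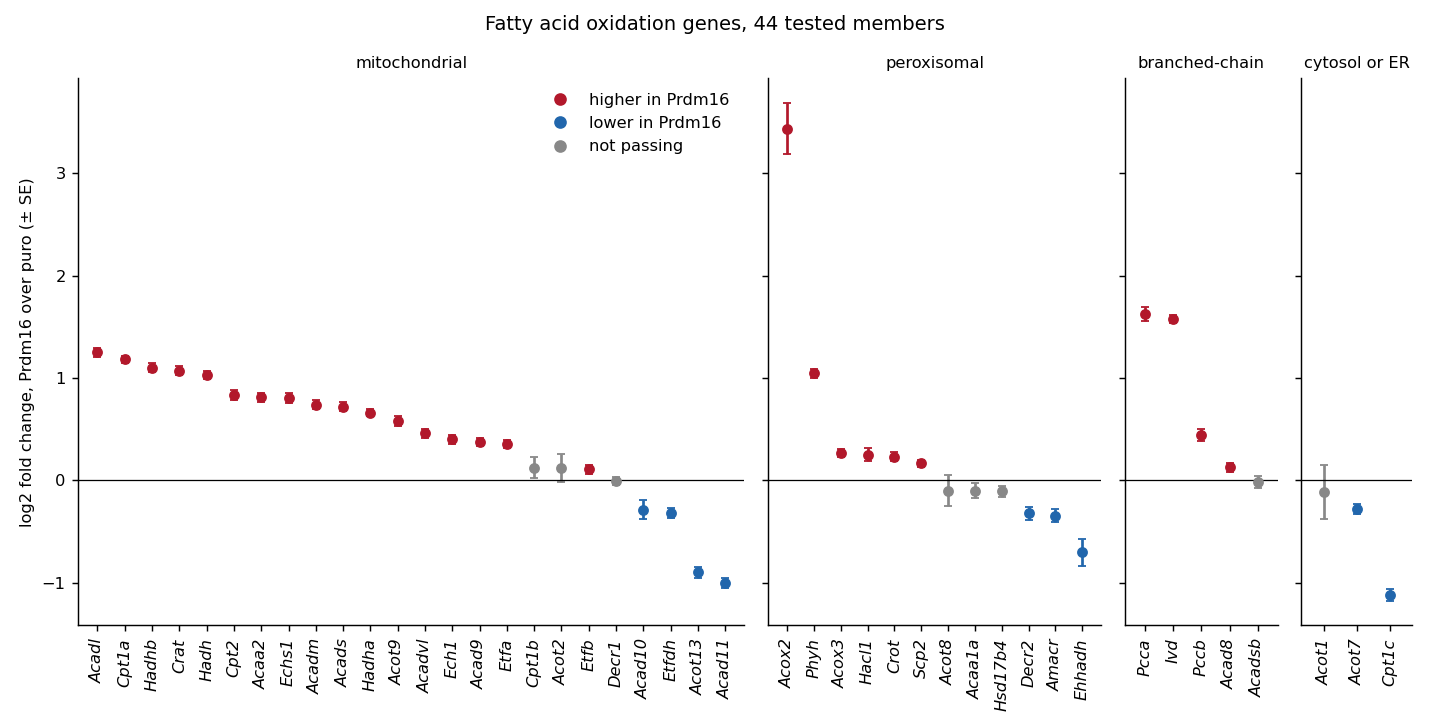
Log2 fold change, Prdm16 over puro, with its SE for the 44 tested members, sorted within mitochondrial, peroxisomal, branched-chain and cytosolic or endoplasmic reticulum genes; red marks a rise, blue a fall and grey a gene that did not pass. Acox2 stands highest at 3.43, Cpt1c lowest at −1.12, and 17 of 24 mitochondrial members are red.

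Nuclear receptors of the PPAR and ERR families, which bind the hexamer AGGTCA, are known regulators of this pathway. Of the 11 members called with a log2 change of at least 1 in either direction, 10 have a promoter window, 4 of them with the hexamer and 6 without. The windows shown were picked by the hexamer: all 4 genes that hold it, and Ivd as 1 of the 6 that do not. The windows are RefSeq's, on GRCm38.p6, and span the annotated start of transcription. Capitals mark AGGTCA, or TGACCT where it lies on the other strand. The windows are Cpt1a at chr19:3323051-3323350 (plus strand), Phyh at chr2:4918746-4919045 (plus), Pcca at chr14:122534078-122534377 (plus), Cpt1c at chr7:44974802-44975101 (minus) and Ivd at chr2:118861744-118862043 (plus), the last with no such letters. Pcca has a further window, at chr14:122484115-122484414 (plus), which also holds TGACCT and is not printed.
Cpt1a: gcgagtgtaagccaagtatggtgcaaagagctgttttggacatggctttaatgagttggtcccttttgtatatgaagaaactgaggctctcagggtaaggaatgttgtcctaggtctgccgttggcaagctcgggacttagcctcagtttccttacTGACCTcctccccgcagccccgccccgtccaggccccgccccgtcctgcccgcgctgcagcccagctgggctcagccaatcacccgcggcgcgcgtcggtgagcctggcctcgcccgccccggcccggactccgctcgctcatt
Phyh: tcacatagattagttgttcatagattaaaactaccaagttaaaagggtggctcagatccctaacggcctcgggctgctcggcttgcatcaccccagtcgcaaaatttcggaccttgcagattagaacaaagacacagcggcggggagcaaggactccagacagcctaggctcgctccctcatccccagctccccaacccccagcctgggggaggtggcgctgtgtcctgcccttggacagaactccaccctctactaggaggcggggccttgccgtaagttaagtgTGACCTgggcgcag
Pcca: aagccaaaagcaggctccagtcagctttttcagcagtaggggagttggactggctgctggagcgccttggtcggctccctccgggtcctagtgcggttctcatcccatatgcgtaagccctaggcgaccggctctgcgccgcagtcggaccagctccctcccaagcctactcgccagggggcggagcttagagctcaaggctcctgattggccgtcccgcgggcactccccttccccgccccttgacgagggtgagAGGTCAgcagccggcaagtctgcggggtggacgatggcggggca
Cpt1c: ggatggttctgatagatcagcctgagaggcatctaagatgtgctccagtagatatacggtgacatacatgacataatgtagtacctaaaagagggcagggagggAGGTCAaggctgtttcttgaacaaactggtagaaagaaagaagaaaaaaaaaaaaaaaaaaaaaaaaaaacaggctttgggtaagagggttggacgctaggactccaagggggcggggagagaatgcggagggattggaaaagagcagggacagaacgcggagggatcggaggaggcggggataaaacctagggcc
Ivd: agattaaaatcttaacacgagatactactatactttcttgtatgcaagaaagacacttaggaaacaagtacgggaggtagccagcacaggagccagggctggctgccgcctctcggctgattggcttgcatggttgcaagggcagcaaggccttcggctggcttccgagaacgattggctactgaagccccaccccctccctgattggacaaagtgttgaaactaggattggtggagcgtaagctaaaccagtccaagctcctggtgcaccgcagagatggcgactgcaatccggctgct

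A window was found for 37 of the 45 members. The hexamer, read on both strands, was in a window of 8 of these 37 (21.6%): Acadm, Acadvl, Cpt1a, Cpt1c, Echs1, Pcca, Phyh and Scp2. It was in 14.9% of the 10195 tested genes with a window and in 16.3% of all 32851 windows. Of the 8 genes 7 rose and Cpt1c fell. The PPAR element known as DR1, in which the hexamer is repeated in the same direction with 1 base between, was in no member's window and in 0.0396% of all windows. The ERR element TNAAGGTCA, which contains the hexamer, was in no member's window either and in 1.28% of all windows. Among tested genes with a window, DR1 was in 0.049% and the ERR element in 0.863%. With elements this rare, their absence from 37 genes does not set the members apart. Both were read on both strands. These matches describe letters only.

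Transcripts of 3 of the 4 mitochondrial carnitine acyltransferase genes rose. Cpt1a, the rate-controlling acyltransferase of the outer membrane in most tissues, had 367, 381 and 372 CPM in the Prdm16 libraries, against 168, 161 and 164 CPM in the puro libraries. All 3 Prdm16 libraries lay above every puro library, by a log2 fold change of 1.18 ± 0.03 (SE; adjusted p = 9.65e-11, edgeR). Its chromosome, 19, had a median log2 fold change of 0.39 over its genes, and with chromosome medians removed (each gene fitted relative to the median of its chromosome) Cpt1a had 0.80 (adjusted p = 2.47e-09). Cpt2, which hands the chain back to CoA on the inner membrane, rose by 0.83 ± 0.05 on the log2 scale.

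Crat, the acetyltransferase that buffers short acyl groups in mitochondria and peroxisomes, had 130, 129 and 130 CPM in Prdm16 and 58.3, 62.4 and 64.7 CPM in puro libraries. Its log2 fold change was 1.07 ± 0.04 (adjusted p = 1.88e-09, edgeR), with no overlap. Cpt1b, the muscle and brown fat form, was low, at 5.48, 5.56 and 5.54 CPM in Prdm16 libraries and 4.55, 5.73 and 4.89 CPM in puro libraries. Its groups overlapped, and the log2 fold change of 0.12 ± 0.11 did not pass (adjusted p = 0.301, edgeR). On chromosome 15, whose median was −0.38, Cpt1b was called with chromosome medians removed (0.51, adjusted p = 0.00124).

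The acyl-CoA dehydrogenases that start β-oxidation of straight chains rose in all 4 cases. Acadl, of long chains, had 251, 271 and 267 CPM in the Prdm16 libraries and 115, 112 and 105 CPM in the puro libraries. Its groups were far apart, and its log2 fold change of 1.25 ± 0.04 (adjusted p = 5.38e-10, edgeR) was the largest among mitochondrial members in this fit. The medium-chain enzyme Acadm rose by 0.74 ± 0.05 on the log2 scale, the short-chain enzyme Acads by 0.72 ± 0.05, and Acadvl, of very long chains, by 0.46 ± 0.04. Acad9, known mainly for its part in assembling respiratory complex I, rose by 0.38 ± 0.04, and by 0.58 with chromosome medians removed.

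The remaining dehydrogenases of the group fell. Acad11, whose human counterpart takes longer chains, had 14.7, 15.7 and 15.04 CPM in Prdm16 libraries, against 30.3, 30.9 and 29.7 CPM in puro libraries. The groups did not overlap, with a log2 fold change of −1.003 ± 0.05 (adjusted p = 1.54e-08, edgeR). Acad10 was low in both groups and had −0.29 ± 0.10 (adjusted p = 0.0176, edgeR), a call lost without Prdm16 replicate 1 (−0.25) or Prdm16 replicate 2 (−0.25) and with DESeq2 (adjusted p = 0.0781). With chromosome medians removed Acad10 had −0.47. Of its transcript's 50-base words 20.4% also occurred in the neighbouring paralog Acad12, which had 82, 81 and 107 counts in Prdm16 and 220, 214 and 242 in puro libraries.

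The later steps of the mitochondrial cycle rose in all 5 members. Hadh, the medium- and short-chain hydroxyacyl-CoA dehydrogenase, had 175, 175 and 184 CPM in Prdm16 libraries, against 88.2, 86.8 and 87.0 CPM in puro libraries. Its 3 Prdm16 libraries were about alike and all higher, with a log2 fold change of 1.03 ± 0.04 (adjusted p = 6.18e-10, edgeR). Hadhb, the thiolase subunit of the mitochondrial trifunctional protein, had 81.0, 85.7 and 83.9 CPM in Prdm16 libraries and 38.9, 40.2 and 37.6 CPM in puro libraries. Hadhb rose by 1.10 ± 0.04 on the log2 scale (adjusted p = 8.23e-10, edgeR).

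Hadha, the partner subunit with hydratase and dehydrogenase activity, started from a higher level, with 261, 265 and 272 CPM in Prdm16 libraries and 172, 171 and 161 CPM in puro libraries. It rose by 0.66 ± 0.04 (adjusted p = 2.83e-08, edgeR), and the difference between the subunits was not tested. Acaa2, the thiolase of the last step, had 113, 113 and 117 CPM in Prdm16 libraries and 67.9, 64.1 and 63.5 CPM in puro libraries. It rose by 0.81 ± 0.04 (adjusted p = 1.17e-08, edgeR), and by 1.22 with chromosome medians removed, since chromosome 18 had a median of −0.41. Echs1, the short-chain hydratase, had 48.5, 45.04 and 47.6 CPM in Prdm16 libraries, against 27.2, 26.7 and 27.0 CPM in puro libraries (log2 fold change 0.80 ± 0.05, adjusted p = 2.96e-08, edgeR). No library of Acaa2 or Echs1 crossed into the other group.

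**Figure D2:**
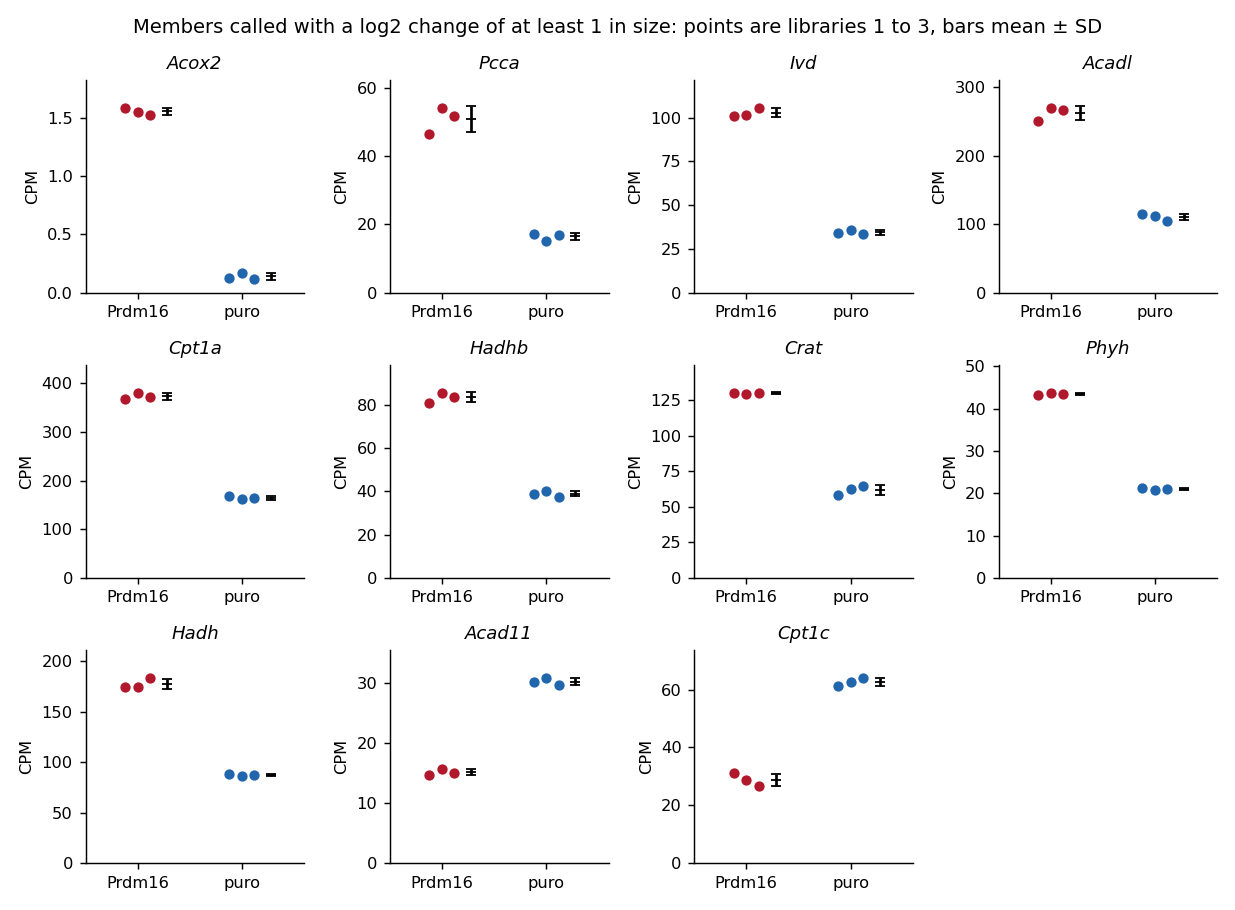
CPM in each library, Prdm16 left and puro right in each panel, for the 11 members called with a log2 change of 1 or more in either direction; black bars give mean ± SD of 3 libraries and each axis starts at 0. The 9 risen genes have all Prdm16 libraries above all puro libraries, and Acad11 and Cpt1c the reverse.

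Of the 3 genes of electron transfer 2 rose and 1 fell. Etfa, the α subunit of the electron transfer flavoprotein, rose by 0.35 ± 0.04 on the log2 scale. Etfb, the β subunit, had 68.3, 66.1 and 71.1 CPM in Prdm16 and 61.3, 64.5 and 65.1 CPM in puro libraries. The log2 fold change of Etfb was 0.11 ± 0.04 (adjusted p = 0.0399, edgeR), a call that was lost without Prdm16 replicate 1 (0.12), Prdm16 replicate 3 (0.08), puro replicate 1 (0.08) or puro replicate 2 (0.11). Upper-quartile scaling and DESeq2 also ended it, with adjusted p of 0.0757 and 0.0779.

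Etfdh, the oxidoreductase that passes these electrons to ubiquinone, had 120, 126 and 131 CPM in Prdm16 libraries and 163, 162 and 145 CPM in puro libraries. Its groups did not overlap and it fell, with a log2 fold change of −0.32 ± 0.05 (adjusted p = 0.000177, edgeR). Chromosome 3, which carries it, had a median of −0.20, and Etfdh had −0.12 (adjusted p = 0.0523) with chromosome medians removed, which ended the call.

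Of the genes that handle double bonds, Ech1, a dienoyl-CoA isomerase, rose by 0.40 ± 0.04. Decr1, the mitochondrial dienoyl-CoA reductase, was level, at 86.0, 86.9 and 87.1 CPM in Prdm16 and 86.9, 86.7 and 87.7 CPM in puro libraries (log2 fold change −0.01 ± 0.04, adjusted p = 0.867, edgeR). Among mitochondrial thioesterases, which release free fatty acid from CoA, Acot9 rose by 0.58 ± 0.05. Acot13 went the other way, with 36.3, 34.6 and 38.7 CPM in Prdm16 libraries, against 71.1, 69.7 and 63.7 CPM in puro libraries, and a log2 fold change of −0.90 ± 0.06. Acot2 was low and did not pass (0.12 ± 0.14, adjusted p = 0.437, edgeR), and 24.5% of its 50-base words also occurred in Acot1, so the counts of this pair are uncertain.

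Acox2 and Phyh were the peroxisomal members with a log2 change of at least 1, and both rose. Acox2, the oxidase of branched chains and bile acid intermediates, had 56, 45 and 51 counts in the Prdm16 libraries, against 4, 6 and 4 counts in the puro libraries. The ratio of the group totals, 152 and 14 counts, was 11.1 after scaling, with an exact 95% binomial interval of 6.40 to 20.7 that covers counting error only. Its fitted log2 fold change was 3.43 ± 0.25 (adjusted p = 2.34e-07, edgeR), and it passed the filter on low counts only through its Prdm16 libraries. Even there it stayed a minor transcript, at 1.56 ± 0.0316 CPM (SD, n = 3).

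Phyh, the phytanoyl-CoA hydroxylase that starts α-oxidation of methyl-branched chains, had 43.1, 43.8 and 43.5 CPM in Prdm16 libraries and 21.3, 20.8 and 21.1 CPM in puro libraries. Its spread within groups was small, and its log2 fold change was 1.04 ± 0.04 (adjusted p = 2.28e-09, edgeR). Hacl1, the lyase that follows it, rose by 0.25 ± 0.07, but on chromosome 14, whose median was 0.49, and it was called lower (−0.23, adjusted p = 0.00762) with chromosome medians removed.

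Acox3, the other branched-chain oxidase, had 67.0, 68.4 and 64.9 CPM in Prdm16 libraries and 55.4, 55.1 and 56.1 CPM in puro libraries (log2 fold change 0.27 ± 0.04, adjusted p = 5.11e-05, edgeR). Crot, which exports medium-chain groups as carnitine esters, rose by 0.23 ± 0.05, and Scp2, a sterol carrier and thiolase, by 0.17 ± 0.04. With chromosome medians removed Acox3 (0.08, adjusted p = 0.0572) and Crot (0.05, adjusted p = 0.331) no longer passed.

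The peroxisomal genes that fell were Ehhadh, Amacr and Decr2. Ehhadh, the L-bifunctional enzyme, had 1.62, 1.83 and 1.77 CPM in Prdm16 libraries, against 2.61, 3.04 and 2.80 CPM in puro libraries, without overlap (log2 fold change −0.70 ± 0.13, adjusted p = 0.000581, edgeR). Amacr, the racemase that readies branched chains for oxidation, had 18.04, 20.4 and 19.4 CPM in Prdm16 and 24.7, 23.5 and 25.2 CPM in puro libraries. Its log2 fold change was −0.35 ± 0.06 (adjusted p = 0.000348, edgeR), and 0.04 (adjusted p = 0.616) with chromosome medians removed. Decr2, the peroxisomal dienoyl-CoA reductase, had −0.32 ± 0.06.

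Hsd17b4, the D-bifunctional enzyme, Acaa1a, the main thiolase, and the thioesterase Acot8 did not pass, with log2 fold changes of −0.10 ± 0.05, −0.10 ± 0.07 and −0.10 ± 0.15. Hsd17b4 was called higher (0.31, adjusted p = 0.00034) with chromosome medians removed, and Acaa1a was called lower without puro replicate 1 (−0.18, adjusted p = 0.0234). Acaa1a shared 34.0% of its 50-base words with Acaa1b, which had 8 counts over the Prdm16 group and 12 over the puro group. Acot8 overlaps Snx21 on the opposite strand over 21.1% of its exon bases, so their reads cannot be told apart where counting ignores strand.

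After Acox2, the largest log2 fold changes of any member in this fit were those of Pcca and Ivd on the branched-chain steps. Pcca, the biotin-carrying subunit of propionyl-CoA carboxylase, had 46.5, 54.2 and 51.7 CPM in the Prdm16 libraries, against 17.1, 15.3 and 17.0 CPM in the puro libraries. The groups did not overlap, and the log2 fold change was 1.63 ± 0.07 (adjusted p = 2.41e-09, edgeR), or 1.14 with chromosome medians removed. Its partner subunit Pccb had 26.4, 24.7 and 23.9 CPM in Prdm16 libraries and 17.6, 18.7 and 18.8 CPM in puro libraries (log2 fold change 0.44 ± 0.06, adjusted p = 4.04e-05, edgeR).

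Ivd, the isovaleryl-CoA dehydrogenase of leucine breakdown, had 101, 102 and 106 CPM in Prdm16 libraries, against 34.3, 35.9 and 33.3 CPM in puro libraries. It was 2.98-fold higher (log2 fold change 1.58 ± 0.04, adjusted p = 5.95e-11, edgeR). Acad8, the isobutyryl-CoA dehydrogenase of valine breakdown, had 35.8, 34.4 and 34.9 CPM in Prdm16 libraries and 33.0, 31.1 and 32.2 CPM in puro libraries.

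The log2 fold change of Acad8 was 0.13 ± 0.05 (adjusted p = 0.0256, edgeR) and lost its call without Prdm16 replicate 1 (0.12), Prdm16 replicate 3 (0.14) or puro replicate 2 (0.10) and with DESeq2 (adjusted p = 0.0799); with chromosome medians removed it had 0.24. Acadsb, the dehydrogenase of the isoleucine branch, had 43.3, 41.7 and 43.6 CPM in Prdm16 and 44.99, 45.7 and 39.3 CPM in puro libraries. Its groups overlapped, and its log2 fold change was −0.02 ± 0.06 (adjusted p = 0.817, edgeR).

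The cytosolic and endoplasmic reticulum relatives did not rise. Cpt1c, a carnitine palmitoyltransferase relative of the endoplasmic reticulum known mainly from brain, had 31.1, 28.6 and 26.8 CPM in Prdm16 libraries, against 61.1, 62.6 and 64.1 CPM in puro libraries, without overlap. It fell, with a log2 fold change of −1.12 ± 0.05 (adjusted p = 7.90e-09, edgeR). The cytosolic thioesterase Acot7 fell too, at −0.28 ± 0.05, and Acot1 had −0.11 ± 0.26 (adjusted p = 0.710, edgeR) at 19 to 37 counts per library.

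Cpt1a and Cpt1c moved apart, so the make-up of the Cpt1 family differed between groups. Per kb of exon, Cpt1a made up 86.7%, 87.9% and 88.2% of the family's level in the Prdm16 libraries, against 62.4%, 60.5% and 60.6% in the puro libraries. Cpt1c made up 11.4%, 10.2% and 9.81% in Prdm16 and 35.1%, 36.3% and 36.7% in puro libraries. Cpt1b stayed a small share in each library, at 1.94% ± 0.0238 in Prdm16 and 2.81% ± 0.357 in puro libraries (SD, n = 3). Its share is uncertain, since a gene model on the same strand holds 93% of its 50-base words.

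Among the 4 straight-chain dehydrogenases the share of Acadl was 35.8% ± 0.517 in Prdm16 and 26.7% ± 0.774 in puro libraries (SD, n = 3), per kb of exon. That of Acadvl was 22.2% ± 0.427 against 28.6% ± 0.805, and is uncertain since Dvl2 overlaps 45% of its exon bases on the opposite strand. Acadm held 28.5% ± 0.364 against 30.3% ± 0.980, and Acads 13.5% ± 0.872 against 14.5% ± 0.975. The groups' libraries did not overlap for the shares of Acadl, Acadvl and Acadm and overlapped for Acads. These shares are descriptions without a test.

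**Figure D3:**
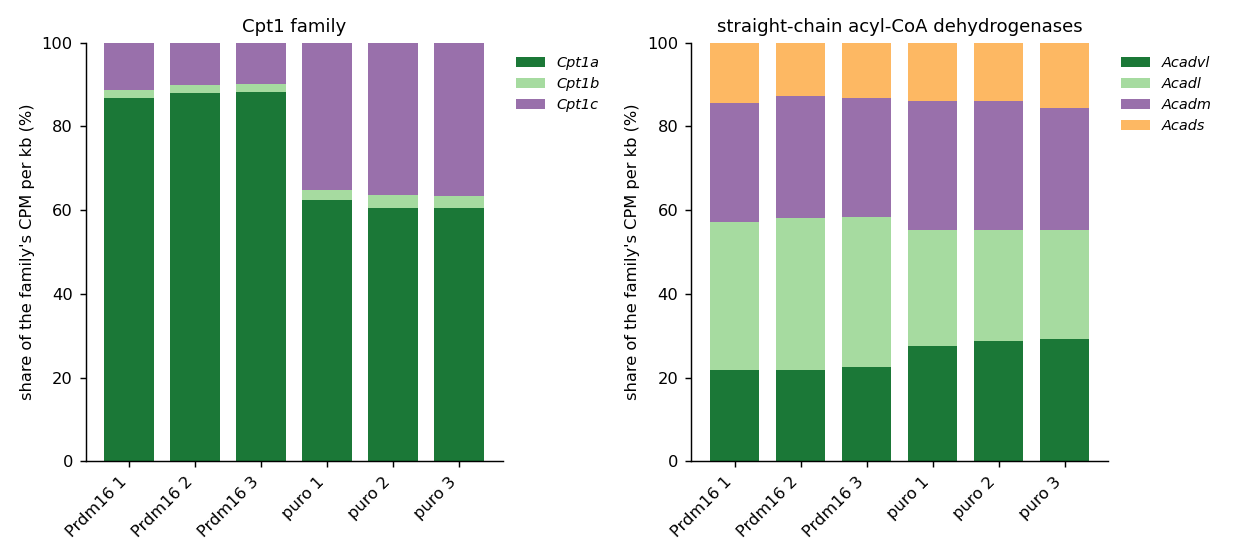
Share of each gene in its family's CPM per kb of exon, in percent, as stacked bars for the 3 Prdm16 and 3 puro libraries, for the Cpt1 family and for the straight-chain acyl-CoA dehydrogenases. Cpt1a fills 86.7% to 88.2% of the Prdm16 bars and 60.5% to 62.4% of the puro bars.

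Levels per kb of exon spread over 3 orders of magnitude. Etfa was the most abundant member in both groups, at 137 ± 5.63 CPM per kb in Prdm16 and 107 ± 2.89 in puro libraries (SD, n = 3). In Prdm16 libraries Acadl stood next, at 137 ± 5.62, within the spread of Etfa, and then Acadm at 109 ± 4.26, Hadh at 99.5 ± 2.84 and Cpt1a at 86.5 ± 1.66. In puro libraries Acadl held rank 7, at 57.6 ± 2.47 CPM per kb, Hadh rank 10 and Cpt1a rank 14. Acot13 held rank 14 in Prdm16 libraries (50.7 ± 2.89 CPM per kb) and rank 2 in puro libraries (94.5 ± 5.45). Ehhadh, Acox2, Acot1 and Acaa1b were the lowest in each group, each under 1 CPM per kb. Lengths were the merged exons of GENCODE M21 on GRCm38, another build than the authors', so order is approximate.

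**Figure D4:**
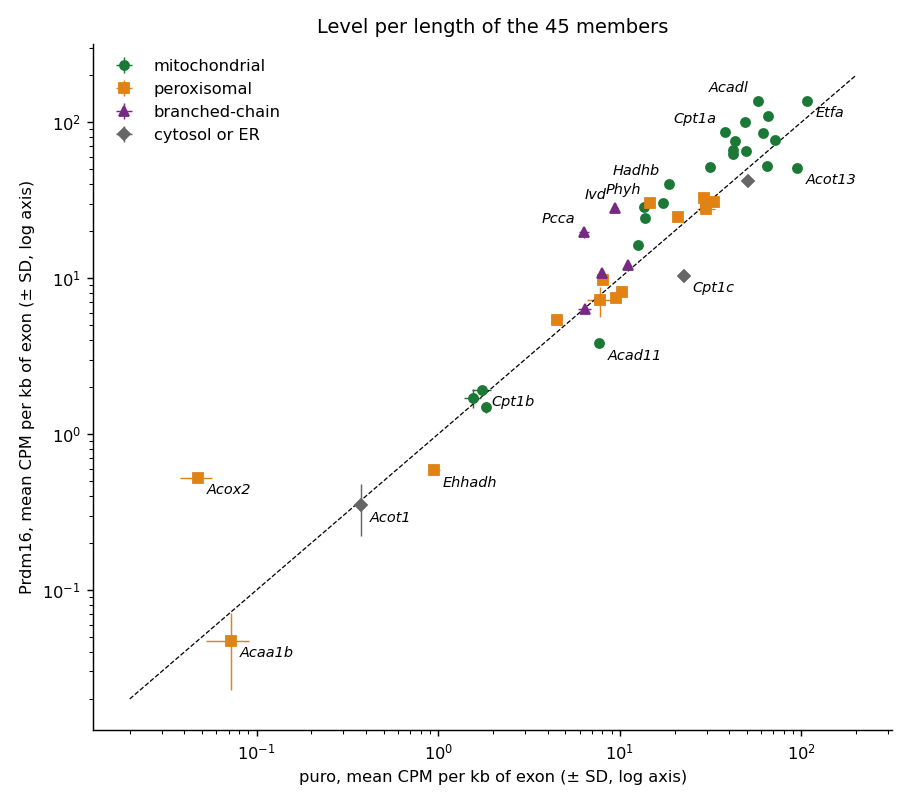
Mean CPM per kb of exon of each of the 45 members, Prdm16 on the vertical and puro on the horizontal axis (both log axes), with SD over 3 libraries and the dashed line of equal level; symbols give the place of the step. Acox2 lies farthest above the line (0.526 against 0.0473 CPM per kb), and Acad11, Cpt1c and Acot13 lie below it.

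Steps next to the pathway were read from 5 further lists holding 62 genes. Over all genes tested, 37.5% rose and 38.0% fell, and the counts below are to be read beside these shares. Of 8 genes listed for fatty acid activation and mitochondrial import, 5 rose and 3 fell (62.5% and 37.5%). The list also holds enzymes of later β-oxidation steps, among them the mitochondrial hydroxyacyl-CoA dehydrogenase Hsd17b10 (0.77 ± 0.05), and these rose. Its acyl-CoA synthetases were split. Acsl3, known from the endoplasmic reticulum and lipid droplets, rose by 1.55 ± 0.06 on the log2 scale, Acsl5 by 0.71 ± 0.04 and Acsl4 by 0.33 ± 0.06. Acsl1 fell (−0.23 ± 0.05), as did Acsl6 (−2.28 ± 0.53). Acsl6 had 1 to 18 counts per library and passed the filter on low counts only through its puro libraries. Slc25a20, the carnitine-acylcarnitine carrier between Cpt1a and Cpt2, fell, with a log2 fold change of −0.28 ± 0.04 (43.9 ± 1.38 against 53.3 ± 1.499 CPM, SD, n = 3 each).

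Of 8 genes that set malonyl-CoA, the inhibitor of Cpt1 enzymes, 5 rose (62.5%), 2 fell (25%) and 1 did not pass. Both acetyl-CoA carboxylases, which make malonyl-CoA, rose, Acaca by 0.91 ± 0.05 and Acacb by 1.001 ± 0.07. So did Mlycd, the decarboxylase that removes it, by 0.80 ± 0.06. The AMP kinase subunits were split. Prkab2 (−0.67 ± 0.06) and Prkag1 (−0.28 ± 0.04) fell, while Prkaa2 (0.63 ± 0.09) and Prkab1 (0.20 ± 0.04) rose. Prkaa1 did not pass (0.0034 ± 0.04).

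Of 18 further genes of branched-chain amino acid and propionate breakdown 12 rose (66.7%), 4 fell (22.2%) and 2 did not pass, with a median log2 fold change of 0.25. Bcat1, the cytosolic aminotransferase, fell, at 8.43 ± 0.895 CPM in Prdm16 and 44.1 ± 0.743 CPM in puro libraries (SD, n = 3; log2 fold change −2.39 ± 0.07). Bcat2, its mitochondrial counterpart, rose by 0.36 ± 0.05, and Dbt, the core of the branched-chain keto acid dehydrogenase, by 0.62 ± 0.05. The other subunit genes of that dehydrogenase in the list were split, as Bckdhb rose by 0.52 ± 0.07 and Bckdha fell, at −0.29 ± 0.06.

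Peroxisomal import and biogenesis had 3 risen (15%), 8 fallen (40%) and 9 not passing of 20 genes, with a median of −0.13. The share that fell was near the 38.0% of all genes tested, and the share that rose was below their 37.5%. Pex7, the import receptor of Phyh and of peroxisomal thiolase, rose by 0.80 ± 0.06, and Pex26 by 0.76 ± 0.05. Pex11a, a peroxisome proliferation factor, fell, with a log2 fold change of −0.58 ± 0.06.

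Of the 8 transcriptional regulators of the pathway all 7 that could be tested rose, and 5 to 7 did so under the alternatives. The weakest calls were those of the fatty acid receptors Ppara (log2 fold change 0.55 ± 0.19, adjusted p = 0.0196, edgeR) and Ppard (0.15 ± 0.05, adjusted p = 0.028). At an adjusted p of 0.01 or without puro replicate 1 the count was 5. Ppargc1a, the coactivator of mitochondrial biogenesis, was at 107 ± 7.56 CPM in Prdm16 and 6.65 ± 0.575 CPM in puro libraries (SD, n = 3; log2 fold change 4.01 ± 0.07), Esrra, its ERR partner, rose by 1.22 ± 0.11, Lpin1 by 0.78 ± 0.04 and Nrip1, a corepressor of such genes, by 0.27 ± 0.05.

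Some members share sequence with other genes, and their counts are uncertain to that extent. Of the 45 members 21 shared no word of 50 bases with another gene's transcripts in GENCODE M21, and 12 shared over 20% of theirs. Hadhb, which rose, shared 61.5% with the gene model Gm13910, and Scp2 41.4% with Scp2-ps2. Cpt1b, Etfb and Hacl1 overlap gene models on the same strand that hold 93%, 67.3% and 55.6% of their words. Acot9 shared 20.2% with Acot10, which had at most 8 counts in any library. Acadvl overlaps Dvl2 on the opposite strand over 45% of its exon bases, and Dvl2 had 2168, 1586 and 1943 counts in Prdm16 and 1857, 2158 and 2199 counts in puro libraries. How the authors' counting treated such reads is not known here.

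Fold changes also shifted by chromosome. Chromosome medians over all tested genes ran to 0.49 on chromosome 14 and 0.39 on chromosome 19, and to −0.38 on chromosome 15 and −0.41 on chromosome 18. The shift was alike in each Prdm16 library, with 0.47, 0.48 and 0.48 on chromosome 14 and −0.42, −0.38 and −0.43 on chromosome 18 against the mean of the puro libraries. These chromosomes carry 8 members: Acox2, Pcca and Hacl1 on 14, Cpt1a on 19, Cpt1b and Amacr on 15, and Acaa2 and Hsd17b4 on 18. The part of these shifts in the members' changes was not tested beyond the values with medians removed. With them removed, 26 members rose and 8 fell, and the members' median log2 fold change was 0.37.

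**Figure D5:**
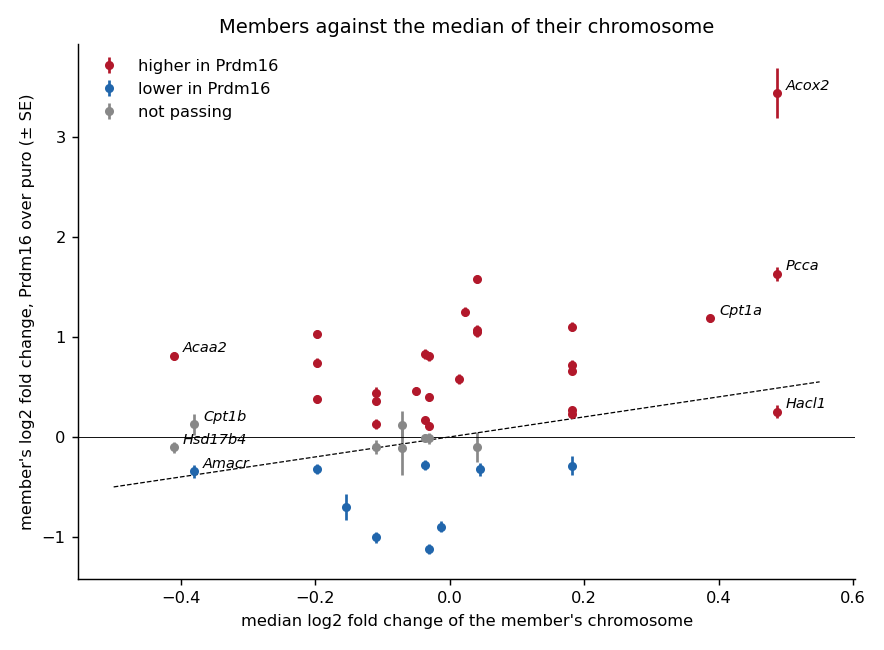
Log2 fold change of each tested member with its SE against the median log2 fold change of its chromosome, with a dashed line where the member equals its chromosome; red marks a rise, blue a fall and grey a gene that did not pass, and members on chromosomes 14, 15, 18 and 19 are named. Acox2, Pcca and Cpt1a lie above the line, Amacr lies near it, and Hacl1 lies below it.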

How the data were processed

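Polyadenylated RNA of 6 libraries was measured. The authors deposited raw read counts, whole numbers for each gene symbol. The submitters' processing notes name STAR, featureCounts, Subread and the build mm9, with no role or order; the sources used here give no version, strand setting or rule for reads shared between genes. No column was left unused.

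The members and gene lists were chosen with earlier results of these data known. The test was that of edgeR 4.0.16 (R 4.3.3): filterByExpr with the group kept 13805 of 24197 genes (the 10392 removed held 0.0297% of counts), libraries were scaled by TMM, and groups were compared by the two-sided quasi-likelihood test, Benjamini-Hochberg adjusted, at 0.05. The SE is the size of the log2 fold change over the root of F. The fit was checked on data made with known changes. Replicate libraries differed by more than sampling noise (chi-square per gene 2.08 to 8.85), and each was counted as 1 sample. That excess does not show that they came from separate animals or cultures.

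All members are named; full values are given for those called with a log2 change of at least 1 and the 3 smallest p besides, within each of the mitochondrial, peroxisomal and branched-chain groups, and for some others, chosen after their values were seen. From the further lists up to 4 genes with the smallest p are named, others after their values were seen; 1 gene the rule names is not reported here. The settings tried besides were upper-quartile and RLE scaling, Prdm16 left out, no filter, a floor of 1 CPM in 3 libraries or more, limma-voom (limma 3.58.1), DESeq2 1.42.0, an adjusted p of 0.01, a replicate block, each library left out, and chromosome medians removed through offsets. Chromosome, exon length and words of 50 bases shared between transcripts came from GENCODE M21, matched by symbol (chromosome for 99.7% of tested genes); promoter windows came from RefSeq.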

Additional observations from a re-analysis of the deposited data

How the results depend on the processing

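Over all alternatives the count of risen members stayed between 25 and 27 and that of fallen members between 8 and 10. With chromosome medians removed, fallen malonyl-CoA genes numbered 1 and risen peroxisomal import and biogenesis genes 5, and Hsd17b4 (0.31), Acaa1a (0.0092), Amacr (0.0353), Hacl1 (−0.23), Decr1 (0.0303) and Acadsb (0.0153) changed sign, the only ones called being Hsd17b4 and Hacl1; the removal of the medians is what moved them. Decr1 (0.0124) and Acadsb (0.0038) also changed sign without a filter and Decr1 with DESeq2 (0.0009), and the cause was not tested. With each library left out in turn, log2 fold changes ran from −0.0121 to 0.0063 for Decr1, −0.29 to 0.0139 for Acot8, −0.0821 to 0.0234 for Acadsb and −0.45 to 0.13 for Acot1, all without a call. Same-numbered libraries did not deviate together (r = −0.16, 0.10 and −0.07), so the numbers were not taken as pairs. Libraries of different numbers had r from −0.19 (Prdm16 2 with puro 3) to 0.25 (Prdm16 1 with puro 3), which was not modelled. With the replicate block 25 members rose and 9 fell, Etfb (0.11) and Acad8 (0.13) losing their calls. At an adjusted p of 0.01, 25 rose and 8 fell. Depth limits Acaa1b, Acot1, Acox2 and Ehhadh.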
